A study of Sus scrofa with 6 samples.

Results

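The genes described here were grouped for their part in osmolyte and urea handling in the renal medulla. They were taken as every probe set of a porcine expression array whose annotation gives 1 symbol equal to AKR1B1, SLC5A3, SLC6A6, SLC6A12, SLC14A2, NFAT5, SORD, GDPD5 or PNPLA6. Of these 9 genes, 3 were found, SORD, GDPD5 and PNPLA6, with 1 probe set each, so 3 of 23999 probe sets, and 3 of 6765 genes with a symbol, are members. The other 6 symbols, which include the aldose reductase, the 3 osmolyte uptake transporters, the urea transporter and the transcription factor, have no probe set under that name in the annotation used and were not analysed here. The measured members therefore cover sorbitol and glycerophosphocholine, and not urea.

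Renal medulla came from 6 adult female Large White-Landrace crossbred pigs, 3 CPB and 3 Sham, each with its own Affymetrix porcine array. CPB pigs had 2.5 hours of cardiopulmonary bypass through a neck dissection under general anaesthesia. Sham pigs had 2.5 hours of general anaesthesia with the same dissection and heparin but no bypass. The tissue, blocks of outer medulla by the study's methods, was taken 24 hours after the intervention, so 1 time point and 1 medullary zone limit what the groups can show.

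The interstitium of the medulla is made hypertonic by salt and urea, and its cells accumulate small organic osmolytes that balance this without harming proteins. Work mainly in rodents and cultured cells describes the routes. Aldose reductase (AKR1B1) makes sorbitol from glucose and sorbitol dehydrogenase (SORD) oxidises it to fructose. PNPLA6, also called neuropathy target esterase, is a phospholipase that forms glycerophosphocholine from phosphatidylcholine, and GDPD5 is a phosphodiesterase that breaks glycerophosphocholine down. Inositol, taurine and betaine are taken up by SLC5A3, SLC6A6 and SLC6A12, and NFAT5 switches on several of these genes when tonicity rises.

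None of the 3 members separated CPB from Sham medulla. All 3 had a higher mean in CPB pigs, where 55.9% of all probe sets did. None had CPB and Sham arrays that did not overlap, against 5.27% of all probe sets. None met the study's threshold of an unadjusted p under 0.05 with at least 1.6-fold (0.304% of all probe sets), or had an unadjusted p under 0.05 (1.4%), or passed limma's adjusted p of 0.05 (0%). The median log2 difference of the 3 was 0.16, against 0.03 over all probe sets. The spread between animals was very unequal among the members, large for SORD, moderate for PNPLA6 and small for GDPD5. Values are RMA intensities on a linear scale, differences are on the log2 scale as CPB minus Sham, and RNA of whole tissue cannot tell fewer cells of a type from less RNA per cell. Precision is limited by 3 animals in each group, and an exact two-sided permutation test could not give a p below 0.1.

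SORD, the enzyme that turns sorbitol into fructose, had intensities of 3407, 431 and 4549 in CPB replicates 1 to 3, against 234, 3209 and 1025 in Sham replicates 1 to 3. CPB 3, CPB 1 and Sham 2 were high, Sham 1 and CPB 2 were low, and Sham 3 lay between them. The mean was 2796 ± 2126 in CPB and 1489 ± 1541 in Sham (SD, n = 3 each). The intensity ranged 10.6-fold among CPB animals and 13.7-fold among Sham animals. Both exceed the difference between the groups, 2.05-fold (log2 difference 1.04, standard error 1.25, limma adjusted p = 0.995). The 95% confidence interval of the ratio of CPB to Sham ran from 0.25 to 17.0, so a change of several-fold in either direction was not detectable with this number of animals. Over the 6 arrays SORD varied by 19.4-fold, a wider range than that of 99.6% of all probe sets, and its mean intensity was above that of 98.4% of them. The difference shrank to a log2 value of 0.05 without Sham 1 and grew to 2.103 without CPB 2. The remaining CPB arrays then both lay above every Sham array. How many of all probe sets separate on those arrays was not computed. The difference was 2.31 with array quality weights, whose estimation stopped before it converged (limma adjusted p = 0.196). That was the 1 setting in which a member met the study's threshold.

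PNPLA6, the phospholipase that forms glycerophosphocholine, had intensities of 210.015, 385 and 176 in CPB replicates 1 to 3, against 323, 175 and 179 in Sham replicates 1 to 3. CPB 2 and Sham 1, the arrays lowest for SORD, were the highest for PNPLA6, and the other 4 arrays lay close together. The mean was 257 ± 112 in CPB and 226 ± 84.4 in Sham (SD, n = 3 each), a log2 difference of 0.16 (standard error 0.38, limma adjusted p = 0.995). The interval of the ratio ran from 0.59 to 2.12. Without CPB 2 the log2 difference turned to -0.17.

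GDPD5, the phosphodiesterase that degrades glycerophosphocholine, had intensities of 135, 179 and 136 in CPB replicates 1 to 3, against 121, 154 and 129.9 in Sham replicates 1 to 3. Replicate 2 was the highest of each group, and the remaining CPB arrays lay above the remaining Sham arrays and below Sham 2. The mean was 150.05 ± 25.2 in CPB and 135 ± 17.1 in Sham (SD, n = 3 each). The log2 difference was 0.15 (standard error 0.17, limma adjusted p = 0.995). The interval of the ratio ran from 0.83 to 1.47, which leaves out a change of 1.6-fold in either direction. The same held for 62.5% of all probe sets. The range over the 6 arrays, 1.48-fold, was wider than that of 49.4% of all probe sets. Without Sham 2 the CPB and Sham arrays of GDPD5 no longer overlapped, at a log2 difference of 0.25 (limma adjusted p = 0.577). The share of all probe sets without overlap on those arrays was not computed. Without CPB 2 and Sham 1 together, a setting added after seeing the data, its difference turned to -0.062.

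**Figure D1:**
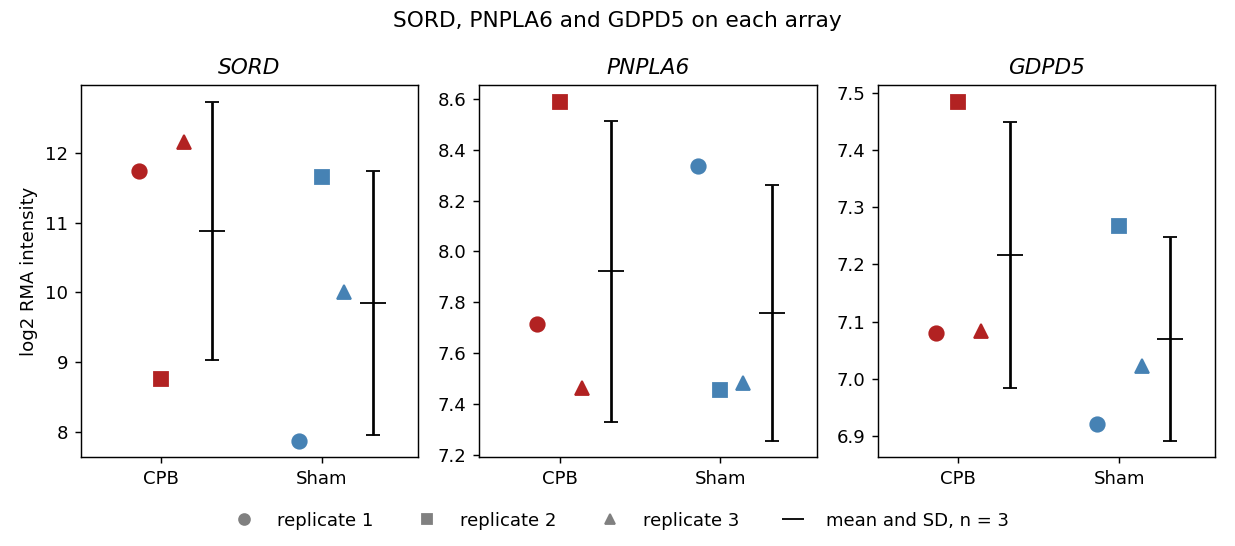
Log2 RMA intensity (vertical axis, a separate scale in each panel) of SORD, PNPLA6 and GDPD5 in CPB (left, red) and Sham (right, blue) medulla. Each symbol is 1 animal, with its shape giving the replicate number, and black bars are the mean and SD of 3 animals. CPB and Sham overlap in each panel, and the SORD panel spans 234 to 4549 on the linear scale.

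SORD and the mean of the proximal tubule markers put the 6 animals in the same order, as 10 of the 26 markers did singly. The 26 measured of 46 listed proximal tubule markers, which mark a mainly cortical segment, averaged a centred log2 intensity of 1.32 in CPB 1, -1.52 in CPB 2 and 1.45 in CPB 3, against -2.01 in Sham 1, 1.11 in Sham 2 and -0.35 in Sham 3. SORD, which is not in that list, stood at 1.37, -1.61 and 1.79 in the CPB arrays and at -2.49, 1.29 and -0.36 in the Sham arrays on the same centred scale. Both put CPB 3 first and Sham 1 last with no change of order between them. The summed intensity of the proximal tubule markers ranged from 6877 to 55902 in CPB and from 5702 to 48087 in Sham. All 26 had a higher mean in CPB (median log2 difference 0.85), and none had an unadjusted limma p under 0.05. The dimmest of them, FABP1, stayed between 9.73 and 12.1 in CPB and between 8.38 and 14.8 in Sham. With the mean of the proximal tubule markers as a covariate, a fit chosen after the data had been seen, the log2 difference of SORD was 0.08 (limma adjusted p = 0.999).

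PNPLA6 did not share the order of SORD. Of 6 measured urothelium markers (21 listed), none had a higher mean in CPB, and their summed intensity ranged from 521 to 2136 in CPB and from 552 to 3289 in Sham. Their mean centred log2 intensity was 0.84 in CPB 2, 0.50 in Sham 1 and 1.59 in Sham 3, and between -1.01 and -0.94 in the other arrays. PNPLA6 was at 0.75 in CPB 2 and 0.50 in Sham 1 but at -0.36 in Sham 3, so it was high on 2 of the 3 arrays where these markers were high. With the proximal tubule covariate PNPLA6 had a log2 difference of 0.43 (limma adjusted p = 0.999), the 1 member whose unadjusted p then fell under 0.05. The share of all probe sets under 0.05 in that fit was not computed. GDPD5, which moved least, was at 0.34 in CPB 2, the array where it stood furthest from its mean, and its log2 difference in that covariate fit was 0.17. The part of tissue composition in any of these values was not tested. The covariate fit is no such test, because it was chosen with the data seen and SORD follows the marker mean on every array.

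**Figure D2:**
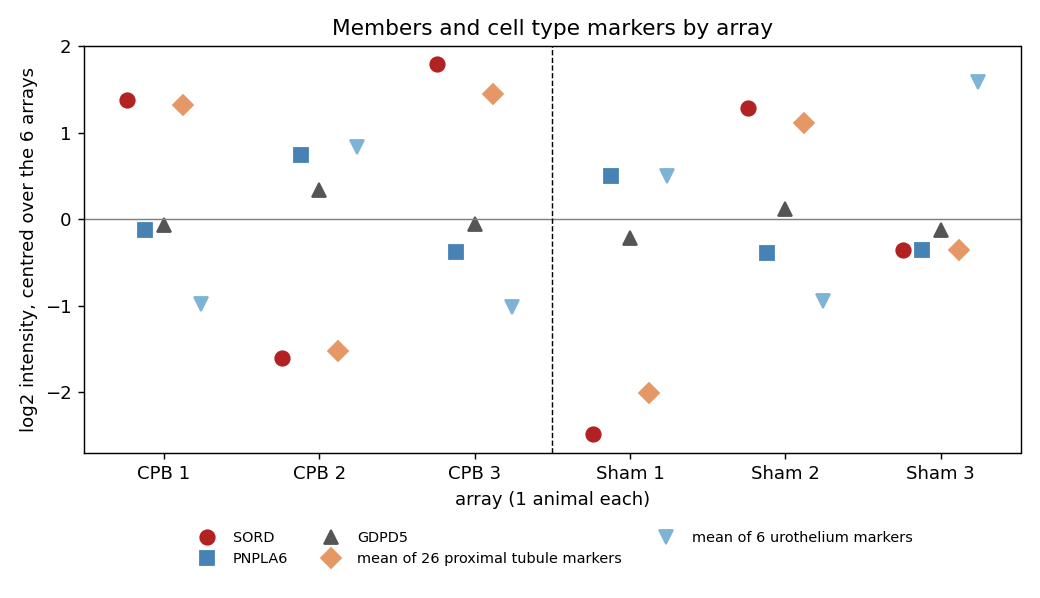
Log2 intensity centred over the 6 arrays (vertical axis) of SORD, PNPLA6 and GDPD5 and of the mean of 26 proximal tubule and 6 urothelium markers, by array (horizontal axis, CPB left of the dashed line and Sham right). Each symbol is 1 gene or marker mean on 1 array. SORD lies close to the mean of the proximal tubule markers on every array, from -2.49 in Sham 1 to 1.79 in CPB 3, while PNPLA6 is highest in CPB 2, at 0.75.

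The labelled tissue was checked against genes of the medullary tubule. The thick ascending limb list had 7 of 19 genes measured, among them the potassium channel KCNJ1, at 835 to 2127 in CPB and 881 to 2219 in Sham. Of the collecting duct list 12 of 26 genes were measured, among them the water channel AQP3, at 1080 to 5437 in CPB and 1048 to 4831 in Sham. AQP3 was high in CPB 2 and Sham 1, as PNPLA6 was. Whether the collecting duct list as a whole was high in Sham 1 depended on the measure. Its 12 measured genes averaged a centred log2 intensity of 0.29 in CPB 2, -0.06 in Sham 1 and 0.14 in Sham 3. The other arrays lay between -0.16 and -0.08. The summed intensity of these genes, in which bright genes weigh most, was 12403 in CPB 2, 8417 in Sham 1 and 7350 in Sham 3. On the other arrays it lay between 4205 and 4955. The defining genes UMOD, SLC12A1 and AQP2 have no probe set under those symbols in the annotation used and were not analysed here. Neither list had a gene with an unadjusted limma p under 0.05, and the medians of the log2 difference were 0.02 and 0.13.

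The genes closest to each member in pattern were sought among 6764 other annotated genes, each on its brightest probe set, by the root mean square difference of centred log2 profiles over the 6 arrays. For SORD the nearest was PDZK1IP1, a small membrane protein of the proximal tubule, at 0.12, with intensities of 1413, 174 and 1947 in CPB and 78.1, 1303 and 375 in Sham. The next was PCK2, the mitochondrial phosphoenolpyruvate carboxykinase, at 0.14. For PNPLA6 the nearest were TLN1, the actin linker talin, at 0.083, and RRBP1, a ribosome-binding protein of the endoplasmic reticulum, at 0.11. For GDPD5 they were RILP, a lysosomal adaptor of Rab7, at 0.04, and KCTD11, at 0.041. Between members the same measure was 0.43 for GDPD5 and PNPLA6, 1.62 for GDPD5 and SORD, and 2.01 for PNPLA6 and SORD.

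Other genes of osmolyte metabolism were read from a list of 42, of which 23 were measured. None met the study's threshold, had an unadjusted limma p under 0.05, or separated CPB from Sham arrays. A higher mean in CPB was found for 16 of the 23 (55.9% of all probe sets), and the median log2 difference was 0.23 against 0.03. The genes with the smallest p were KHK, SLC44A4, ALDH7A1 and CHDH. The other genes of the list are named for their place in a route, after their values were seen.

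In the sorbitol and fructose route, KHK, the ketohexokinase that phosphorylates fructose, had intensities of 896, 260.4 and 890.4 in CPB, against 127, 578 and 239.7 in Sham. CPB 2 and Sham 1 were low within their groups, as they were for SORD, and the log2 difference was 1.19 (standard error 0.71, limma adjusted p = 0.995). The fructose transporter SLC2A5 had 381, 65.8 and 581 in CPB, against 49.6, 348 and 118 in Sham. The aldehyde reductase AKR1A1, a relative of aldose reductase, had 2192, 589 and 2699 in CPB, against 476, 1788 and 879.7 in Sham. SLC2A5 and AKR1A1 put the 6 arrays in the order that SORD did, as did BHMT, SLC3A2 and AKR7A2. That makes 5 of 25 genes (20% of the list with PNPLA6 and GDPD5 added), where 1.4% of all probe sets have this order. Of the proximal tubule markers 10 of 26 (38.5%) have it too. HK1 and SLC2A1 were instead highest in CPB 2. HK1, a hexokinase, had 556, 1788 and 390.3 in CPB, against 1575, 527 and 1021 in Sham, and the glucose transporter SLC2A1 had 259.7, 786 and 298 in CPB, against 415, 276 and 492 in Sham.

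In the glycerophosphocholine and choline route, the 10 genes measured had a median log2 difference of 0.10, between -0.26 and 0.70. The choline transporter-like gene SLC44A4 had the highest log2 difference of the 10, with intensities of 879, 527 and 882 in CPB, against 295, 860 and 377 in Sham. It differed by 0.70 (standard error 0.44, limma adjusted p = 0.995). SLC44A2 of the same family ran the other way, at 179, 403 and 131 in CPB and 371, 189.6 and 229 in Sham, and so was high where PNPLA6 was high. Its 2 dimmer probe sets differed by -0.40 and -0.67 and were highest in Sham 1 and in Sham 3. GDE1, a second glycerophosphodiester phosphodiesterase, had 417, 695 and 499 in CPB, against 501, 464 and 559.7 in Sham. On this probe set it was highest in CPB 2, as GDPD5 was, and it ranged 1.67-fold over the arrays, wider than 63.2% of all probe sets. On a dimmer one GDE1 ranged 1.19-fold and was highest in Sham 2. The intervals of GDPD5, GDE1 and the choline kinase CHKB lay within 1.6-fold either way, and those of the other 7 genes did not. CHPT1, which makes phosphatidylcholine, differed by -0.02 (standard error 0.41) with 829.7 in CPB 2 and 2063 and 2335 in the other CPB animals.

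In the betaine route, CHDH, the choline dehydrogenase that starts betaine synthesis, had 128, 101 and 146 in CPB, against 109.6, 115 and 81.2 in Sham, a log2 difference of 0.30 (standard error 0.20, limma adjusted p = 0.995). Its 2 other probe sets differed by 0.26 and 0.36. ALDH7A1, an aldehyde dehydrogenase that can oxidise betaine aldehyde, had 666, 340.4 and 785 in CPB, against 499, 392.4 and 308 in Sham. The log2 difference was 0.52 (standard error 0.35) on that probe set and 0.26 (standard error 0.76) on a dimmer one. BHMT, which consumes betaine to remethylate homocysteine, had the widest range of the route, with 2655, 92.3 and 3125 in CPB, against 71.4, 967 and 493 in Sham. Its log2 difference was 1.496 (standard error 1.63).

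For inositol, the breakdown enzyme MIOX had 3764, 631 and 4979 in CPB, against 209.5, 4218 and 1587 in Sham, a 23.8-fold range over the arrays beside the 19.4-fold range of SORD. The synthesis enzyme ISYNA1 ran the other way, with 163, 384 and 121 in CPB, against 369.9, 157 and 242 in Sham. IMPA1, the inositol monophosphatase, had 494, 441 and 505 in CPB, against 426, 423 and 478 in Sham, with a log2 difference of 0.12 and a 95% confidence interval from -0.17 to 0.40. A dimmer probe set of IMPA1 differed by -0.28, ranged 2.19-fold over the arrays and had an interval of the ratio from 0.50 to 1.34. In the taurine and amino acid group, CDO1, which starts taurine synthesis from cysteine, stood at 387 in Sham 1 and between 41.3 and 91.2 on the other 5 arrays. SLC38A1, a transporter of small neutral amino acids, had 60.3, 163 and 31.3 in CPB, against 134, 62.8 and 115 in Sham, a log2 difference of -0.55 beside -0.17 and -0.08 on 2 dimmer probe sets.

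**Figure D3:**
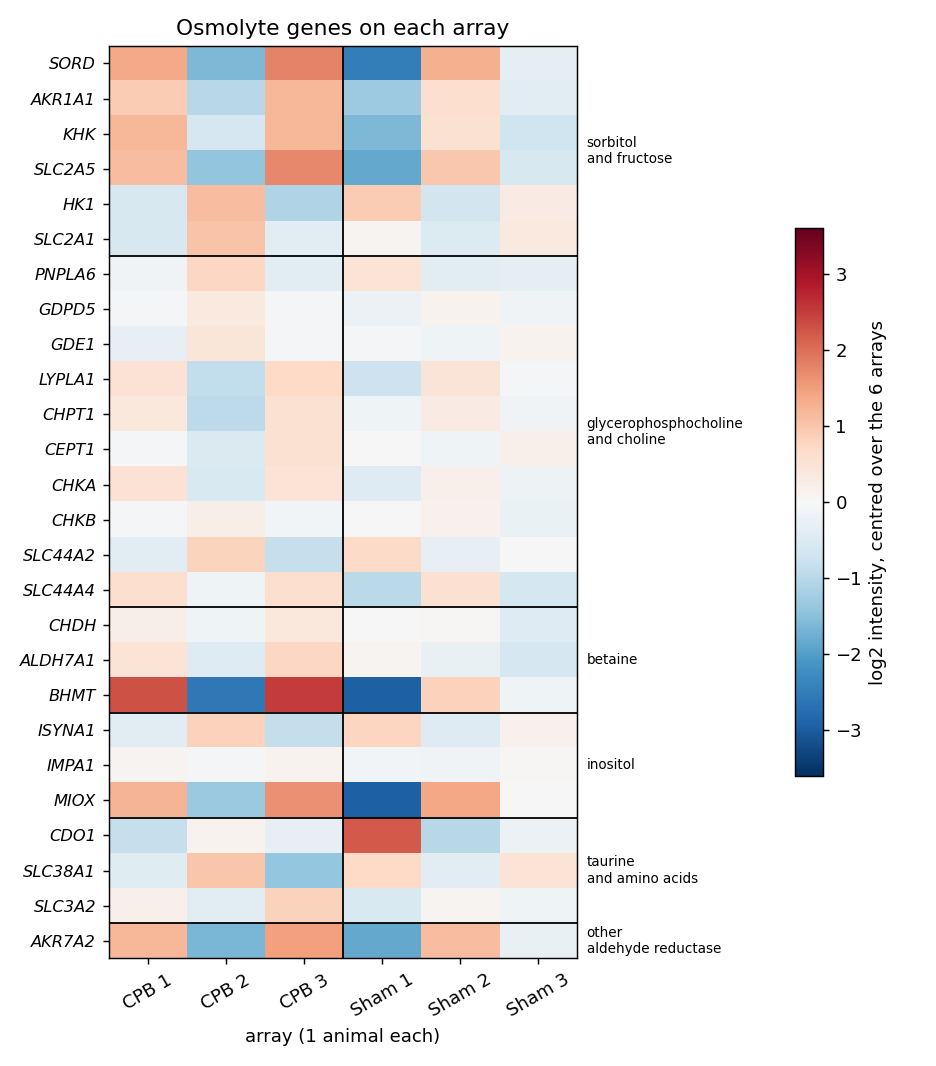
Log2 intensity centred over the 6 arrays (colour) of the 3 members and 23 other osmolyte genes (rows, grouped by route) on each array (columns, CPB left of the line and Sham right). SORD, AKR1A1, SLC2A5, BHMT, MIOX and AKR7A2 are low in CPB 2 and Sham 1, while HK1, PNPLA6, SLC44A2, ISYNA1 and SLC38A1 are high there.

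**Figure D4:**
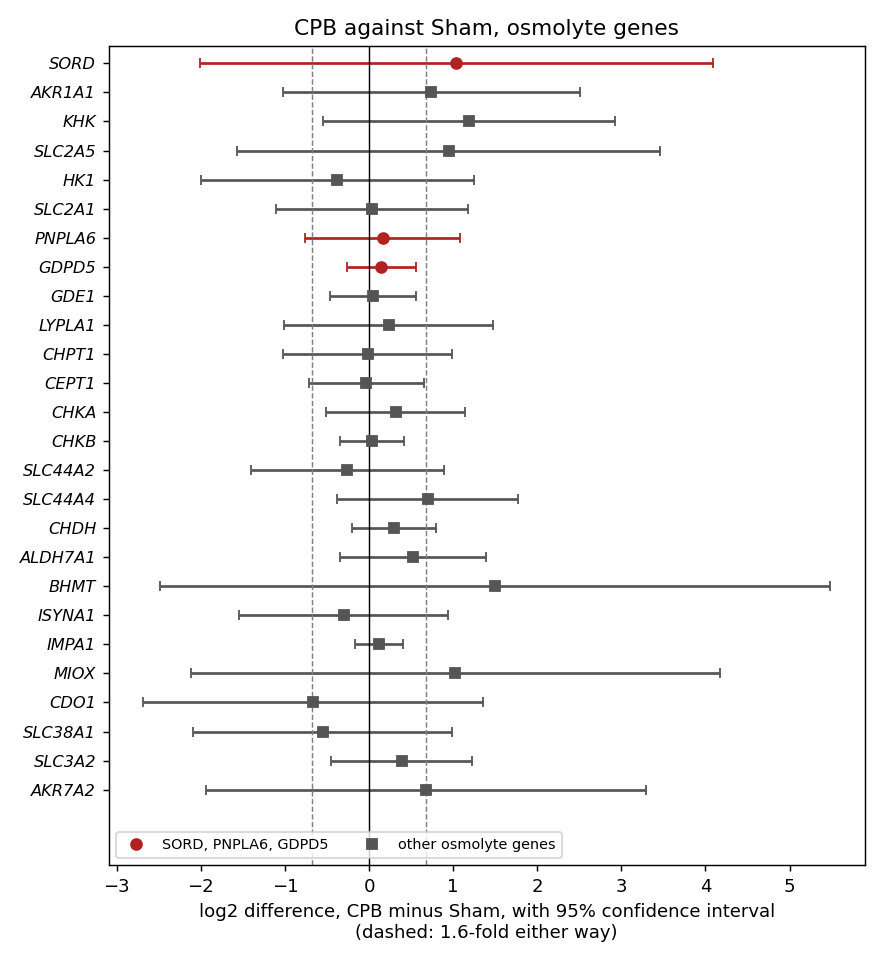
Log2 difference of CPB minus Sham with its 95% confidence interval from limma (horizontal axis) for the same 26 genes (rows). The members are red circles and the others grey squares, and dashed lines mark 1.6-fold either way. Each interval includes 0, and those of GDPD5, GDE1, CHKB and IMPA1, each on its brightest probe set, lie between the dashed lines.

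Genes that answer to tonicity or take part in the NFAT5 response were read from a list of 25, of which 20 were measured. Of these 1 passed the unadjusted p of 0.05 and the study's threshold, where 1.4% and 0.304% of all probe sets did. This was CLU, the chaperone clusterin, with 1088, 764 and 566 in CPB, against 1141, 1503 and 1203 in Sham (log2 difference -0.71, standard error 0.26, limma adjusted p = 0.995). CLU is among the genes the study itself picked on these arrays, so it is no independent evidence. BAG3, a co-chaperone, had a log2 difference of 0.57 (standard error 0.33), beside 0.20 (standard error 0.22) on a dimmer probe set. NUP88, a nuclear pore protein, had -0.17 (standard error 0.15). MAPK14, the p38 kinase, had 0.17 (standard error 0.16), beside 0.16 (standard error 0.19) on a dimmer probe set. The heat shock gene HSP70.2, whose human counterpart is induced by hypertonicity, had 1608, 3939 and 1141 in CPB, against 2623, 1144 and 3856 in Sham. CRYAB, a small chaperone abundant in the inner medulla, had 420.002, 3559.9 and 624 in CPB, against 3364, 660.4 and 2219.9 in Sham. Both were high in CPB 2, Sham 1 and Sham 3 on these probe sets, and both were picked with their values known. On a dimmer probe set of HSP70.2, Sham 1, at 1227, lay below CPB 1, at 1323. On another of HSP70.2 and on a dimmer one of CRYAB the same arrays were the highest. The list had 7 genes with a higher mean in CPB and 13 with a lower one, and a median log2 difference of -0.12.

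The urea and water handling list had 13 of 22 genes measured, and none had an unadjusted limma p under 0.05 or groups that did not overlap. The 4 with the smallest p were STX4, a syntaxin (log2 difference -0.19, standard error 0.15), ARG1, the liver-type arginase (-0.14, standard error 0.13, at intensities of 11.1 to 14.7), PRKACA, a catalytic subunit of protein kinase A (0.23, standard error 0.22), and AQP11, an aquaporin of intracellular membranes (0.96, standard error 0.90). ARG2, the mitochondrial arginase that releases urea from arginine, had 555, 349.9 and 2209 in CPB, against 309, 735 and 640.5 in Sham, a log2 difference of 0.52 beside 0.24 and 0.04 on 2 dimmer probe sets. AQP1, the water channel of the proximal tubule and thin descending limb, had 5122, 4465 and 5547 in CPB, against 5515, 5507 and 3932 in Sham. Its interval, a log2 difference of 0.03 with a standard error of 0.18, lay within 1.6-fold either way on that probe set. A dimmer probe set of AQP1 had 333, 133 and 716 in CPB, against 281, 341 and 470 in Sham, a log2 difference of -0.17 (standard error 0.60) with an interval of the ratio from 0.32 to 2.48. ARG2 and AQP1 were chosen after their values were seen.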

How the data were processed

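RNA of renal medulla from 3 CPB and 3 Sham pigs was hybridised to Affymetrix porcine arrays, 1 for each animal. The authors processed scans in GCOS, normalised them with RMA in ArrayStar (background correction, quantile normalization, median polish), as the submitters' processing notes also state, and deposited linear intensity values for 24123 probe sets. RMA equalises the distributions (array medians 94.62 to 96.93), so only changes relative to the rest of the RNA are seen. Signal over background is not known, and no genome build is named, so no positions are given.

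Log2 was taken, 124 control probe sets were left out, and CPB was compared with Sham over 23999 probe sets with limma 3.58.1 (lmFit, eBayes) in R 4.3.3 with Benjamini-Hochberg adjustment. Symbols come from the array annotation, which gives 1 symbol to 10099 probe sets, several to 198 and does not list 13826. For lists, the brightest probe set stands for a gene. Named are all members, the 4 genes with the smallest p in the osmolyte, tonicity and urea lists, the 2 nearest genes of each member, and, with values seen, markers such as KCNJ1, AQP3, FABP1 and WT1 and the genes said to be so chosen. The members and lists were chosen with earlier results of these data known. Marker lists for thin limb, endothelium, interstitium, leukocytes and glomerulus were also read. The alternatives were other tests, weights, normalizations, filters and fold minimums, a block, and each array left out. A proximal tubule covariate and the removal of CPB 2 and Sham 1 together were added after seeing the data.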

Additional observations from a re-analysis of the deposited data

How the results depend on the processing

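No member passed an adjusted p of 0.05 under any of the alternatives run, and SORD kept a higher mean in CPB under all of them. GDPD5 did so under all but 1: without both CPB 2 and Sham 1, the arrays low in SORD and the proximal tubule markers, left out together after seeing the data, its log2 difference was -0.062. That fit gave 1.12 for SORD, whose arrays then did not overlap (1 member), 0.12 for PNPLA6 and for the median of members, and 333 probe sets at the study's threshold. The share of all probe sets without overlap on the arrays left in that fit was not computed, and fewer arrays separate more easily. GDPD5 lay between 0.012 and 0.25 with each array left out. PNPLA6 turned to -0.11 with array quality weights and lay between -0.17 (without CPB 2) and 0.45 (without Sham 1) with each array left out. With array quality weights, whose estimation stopped before it converged, 1 member (SORD, at a log2 difference of 2.31) had an unadjusted limma p under 0.05 and 1 met the study's threshold, as did 2116 probe sets. With the proximal tubule covariate, added after seeing the data, 1 member (PNPLA6) had an unadjusted limma p under 0.05. The share of all probe sets under 0.05 in that fit was not computed. The covariate fit put 106 probe sets and 0 members at the study's threshold. The study's threshold was met by 73 of all probe sets, by 30 with the methods' t-test on log2 values, by 26 with it on linear values, and by 21 at a fold minimum of 2. Leaving out each array in turn gave 52 to 701 probe sets (701 without Sham 2, 693 without CPB 2) and 0 members at the study's threshold. The median log2 difference of members lay between 0.01 and 0.39. The cause of this spread was not tested. In these fits 0 to 1 members had groups that did not overlap, and the share of all probe sets that did so was not computed. The replicate number as a block gave 76 probe sets and 0 members at the study's threshold. Arrays with the same number did not deviate together (correlations of -0.39, -0.68 and -0.02). Pairs with unequal numbers ranged from -0.71 to 0.70. With 3 arrays in each group these values cannot show whether equal numbers share a batch, which was not tested. Each member has 1 probe set, so other probe set rules gave no other value.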

Other observations

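The other cell type lists held no member and add these values. Of 15 measured endothelial markers 6 had a higher mean in CPB (median log2 difference -0.34), and 1 met the study's threshold, where 0.304% of all probe sets did. This was PECAM1, an adhesion molecule of endothelium. Its log2 difference was -0.75 (limma adjusted p = 0.995), beside -0.74 on a dimmer probe set. The study had picked PECAM1 on these arrays. The medians were -0.35 for 16 interstitial and smooth muscle markers, -0.06 for 16 leukocyte markers and -0.11 for 5 thin limb and papillary markers. Of the glomerular list only WT1 was measured, at 56.7 to 78.7 in CPB and 47.5 to 75.6 in Sham, so glomerular tissue could hardly be judged. The small numbers of annotated genes limit each of these lists.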
